A study of Mus musculus with 12 samples.

Results

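The circadian clock genes of the mouse aorta were described here, namely the core transcription loop, its repressors and regulators, and a set of output genes. The members were chosen by name: 30 symbols were listed, and 29 of them have a row among the 25284 genes of the count table. The remaining symbol, Gm129, is an older name of Ciart, which is present. All 29 members passed the filter on low counts, as did 15857 genes in all. The study asked how gene expression in the aorta differs when the receptor α7nAChR is activated, and sequenced stranded total RNA from the thoracic aorta of male ApoE-/- mice (C57BL/6 background, no apolipoprotein E) on a high fat, cholesterol enriched diet. For 8 weeks, minipumps placed under the skin of 6 mice delivered the agonist AZ6983 (daily dose 50 µmol per kg), and 6 control mice carried pumps with cyclodextrin in saline. All mice were 18 weeks old at the end and had been housed under equal, alternating light and dark periods. They are called A1 to A6 (AZ6983) and C1 to C6 (control) here. The time of day at which each aorta was taken is not given in the sources used here, so a difference in sampling time and a difference in treatment cannot be told apart.

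The clock is a feedback loop of transcription. The products of Arntl (BMAL1) and of Clock or its relative Npas2 pair up, bind E-box sequences and switch on the Per, Cry, Nr1d and Bhlhe genes together with Dbp, Tef, Hlf and Ciart, so that the targets follow their activators in time. PER and CRY proteins then block the activators, REV-ERB proteins (Nr1d1, Nr1d2) repress Arntl, Npas2 and Nfil3 through ROR elements that ROR proteins activate, and DBP, TEF and HLF compete with NFIL3 at D-boxes. The loop runs in the smooth muscle and endothelium of vessels, and at any moment the genes of the Arntl side and those of the Dbp, Per3 and Nr1d side stand at different phases.

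Sequence around the start sites carried these elements in some members. RefSeq windows of 300 bases (250 before and 50 after a start, build GRCm38.p6, the same assembly as mm10) were found for 24 of the 29 members, in 35 windows. The E-box CACGTG was in a window of 6 members (Per1, Cry1, Tef, Ciart, Bhlhe41, Tspan4), in 7 of the members' 35 windows and in 7.15% of all 32851 windows. The variant CACGTT was in 14.3% of members' windows and 4.68% of all, the D-box TTANGTAA in 8.57% and 2.32%, and the ROR element TAGGTCA in 8.57% and 2.61%. Both strands were searched, and both E-box forms share the letters CACGT. A match describes letters only. The windows below are shown because their genes lie on opposite sides of the pattern across mice. Matches are in capitals, E-boxes in Ciart and Tef, D-boxes in Per3 and ROR elements in Arntl and Nfil3. Matches did not follow the sides throughout. Of the other members with an E-box, Bhlhe41 and Tspan4 lay with Ciart and Tef, Cry1 with Arntl and Per1 with neither. Per1, and Timeless and Rorb with a D-box, had r of 0.16, 0.21 and −0.10 with the phase index below. No window of Npas2, Dbp or Nr1d2 held a match.
Ciart (chr3:95882179-95882478, minus strand), 3 E-boxes that begin 116, 58 and 44 bases before the start:
Ciart: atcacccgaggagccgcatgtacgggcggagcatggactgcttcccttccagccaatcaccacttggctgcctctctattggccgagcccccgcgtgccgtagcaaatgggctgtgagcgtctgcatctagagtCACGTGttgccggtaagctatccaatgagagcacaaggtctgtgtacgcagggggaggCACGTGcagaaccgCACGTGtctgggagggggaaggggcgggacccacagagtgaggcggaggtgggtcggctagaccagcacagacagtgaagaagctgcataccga
Tef (chr15:81811164-81811463, plus strand), an E-box that begins 138 bases before the start:
Tef: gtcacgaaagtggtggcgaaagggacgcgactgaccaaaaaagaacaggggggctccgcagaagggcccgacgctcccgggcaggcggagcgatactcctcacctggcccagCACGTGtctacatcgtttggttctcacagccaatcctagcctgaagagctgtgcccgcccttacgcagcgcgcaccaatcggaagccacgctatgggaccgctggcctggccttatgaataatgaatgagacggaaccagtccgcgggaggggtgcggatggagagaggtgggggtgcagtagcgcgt
Per3 (chr4:151044616-151044915, minus strand), 2 D-boxes that begin 205 and 158 bases before the start:
Per3: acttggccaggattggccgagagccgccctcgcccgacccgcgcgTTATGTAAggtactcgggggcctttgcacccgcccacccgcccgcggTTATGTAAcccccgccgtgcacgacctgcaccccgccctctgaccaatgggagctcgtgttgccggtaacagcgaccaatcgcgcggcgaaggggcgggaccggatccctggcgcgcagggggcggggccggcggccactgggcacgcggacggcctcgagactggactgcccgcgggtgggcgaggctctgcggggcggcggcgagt
Arntl (chr7:113207261-113207560, plus strand), a ROR element that begins 30 bases after the start:
Arntl: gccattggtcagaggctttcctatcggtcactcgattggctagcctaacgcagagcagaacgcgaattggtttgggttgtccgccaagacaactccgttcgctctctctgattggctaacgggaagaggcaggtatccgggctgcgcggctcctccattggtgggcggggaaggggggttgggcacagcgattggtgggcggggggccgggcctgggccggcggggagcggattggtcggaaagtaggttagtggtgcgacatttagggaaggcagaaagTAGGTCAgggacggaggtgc
Nfil3 (chr13:52980990-52981289, minus strand), a ROR element on the other strand that begins 12 bases before the start:
Nfil3: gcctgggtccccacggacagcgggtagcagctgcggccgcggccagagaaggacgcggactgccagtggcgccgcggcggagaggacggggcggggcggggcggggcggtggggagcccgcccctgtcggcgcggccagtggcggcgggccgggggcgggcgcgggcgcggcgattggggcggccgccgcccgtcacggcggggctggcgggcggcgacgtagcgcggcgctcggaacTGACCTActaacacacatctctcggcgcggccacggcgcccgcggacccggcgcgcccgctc

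Counts on genes were 23810036 to 35864666 per mouse, and levels are given as CPM (counts scaled to library size with TMM factors in edgeR). Markers of the labelled tissue were abundant in every mouse, with 6 smooth muscle genes summing to 10424 to 18008 CPM and 6 endothelial genes to 766 to 968 CPM. Some mice stood apart in other tissues: 7 T cell and thymus genes summed to 892 CPM in A4 and to at most 36.1 CPM elsewhere, and 6 brown fat genes to 5591 CPM in A5, to 2172 to 2872 CPM in the other AZ6983 mice and to 2659 to 4284 CPM in controls. Unassigned reads, which the counting placed on no feature, made up 8.02% to 12.7% of the table in controls and 11.2% to 14.9% in AZ6983 mice. Whether reads in introns are among them is not given in the sources used here. In bulk tissue, fewer cells of a type and less RNA per cell cannot be told apart. The library of A1 was matched to its label by 3 digits of the mouse number, and values without A1, A4 or A5 are given where they change a count.

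Per kilobase of exon, the clock genes covered a wide range of levels in control aortas. Fmo2, a flavin-containing monooxygenase, was at 172 ± 33.3 CPM per kb (SD, n = 6), Nr1d2 at 26.0 ± 4.29, Tspan4, a tetraspanin, at 16.4 ± 2.47, Tef at 15.7 ± 2.31, Nr1d1 at 15.2 ± 3.09 and Clock at 14.7 ± 1.09 CPM per kb. Arntl, at 3.87 ± 1.03 CPM per kb, was above Npas2, at 1.86 ± 0.481, and Arntl2, its paralog, was at 0.794 ± 0.116 CPM per kb. Tspan4, Tef, Nr1d1 and Clock lay within each other's spread. Ciart was at 0.696 ± 0.258 CPM per kb and Rorb, the ROR gene best known from brain and retina, at 0.0475 ± 0.0208, with 8 to 26 counts per mouse over all 12. Members differed as much in how they varied between mice. Dbp covered a 6.52-fold range over the 12 mice, Ciart 3.88-fold, Cry1 3.61-fold and Npas2 3.52-fold, whereas Clock covered 1.25-fold and the kinase genes Csnk1d and Csnk1e 1.24-fold and 1.26-fold. The median SD between mice of a group was 0.324 on the log2 scale for the 29 members and 0.217 for all genes tested.

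In AZ6983 aortas Npas2 was higher than in controls, and Nr1d2, Tef and Ciart were lower, but no member reached 10% FDR in the quasi-likelihood fit of edgeR. The same was true of all genes (0 of 15857, or 0%, with 1616 at an unadjusted p under 0.05), while DESeq2 called 92 of 17592 genes (0.523%). The members' adjusted p ran from 0.447 to 0.967. The members were chosen with earlier results of these data known, so their counts are a description. At an unadjusted p under 0.05 there were 6 of the 29 members (20.7%), against 10.2% of all genes tested. Of these, 4 were lower in AZ6983 mice (Nr1d2, Tef, Ciart, Fmo2), where 2.81% of all genes were, and 2 were higher (Npas2, Leo1), where 7.38% of all genes were. The median log2 fold change was −0.01 over the members and 0.01 over all genes, and its median size was 0.20 and 0.11. No member had groups without overlap, which 0.41% of all genes had. Without C3, and likewise without A6, 3 members had a p under 0.05 (Npas2, Nr1d2 and Tef), and without A1 there were 9. Over all genes there were 1088 of 15997 without C3, 1232 of 15995 without A6 and 2233 of 15998 without A1. The number of members was 4 without C5, A4 or A5. Over all genes it was then 1292 of 16018, 1516 of 15976 and 2049 of 16011. With the percentage of unassigned reads as a covariate there were 0 members, and 467 of all 15857 genes. That percentage was higher in most AZ6983 mice, so its part and that of treatment cannot be told apart.

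**Figure D1:**
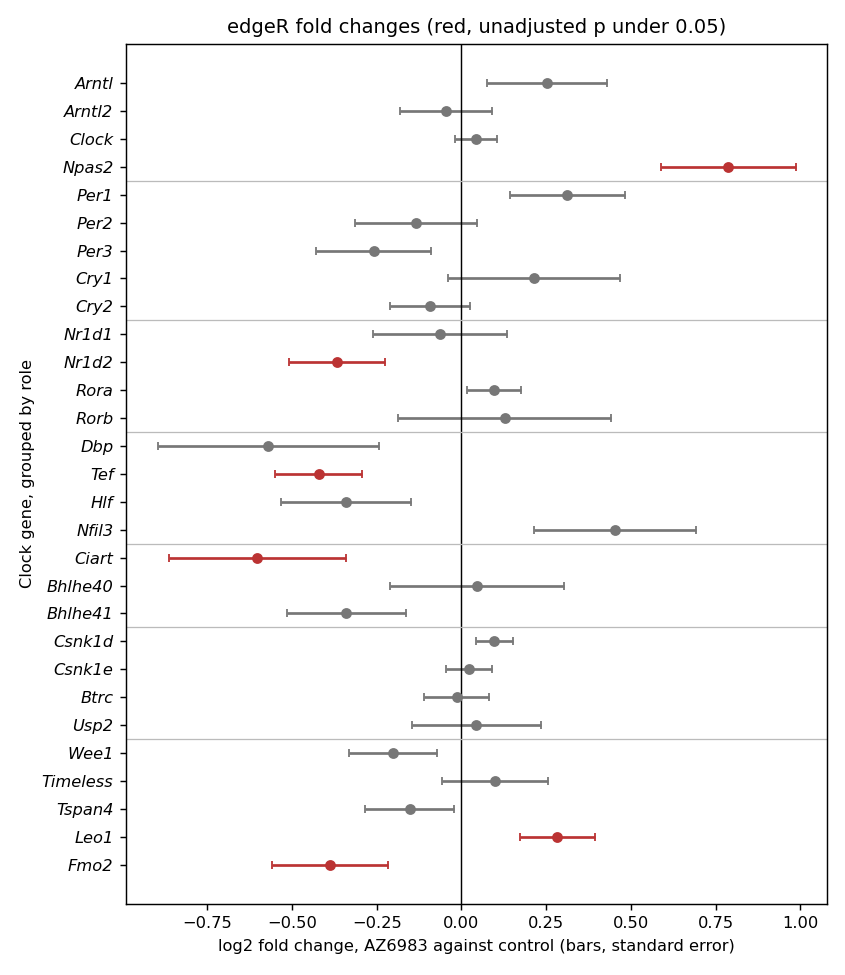
Log2 fold change of the 29 clock genes, AZ6983 against control (x axis), from edgeR, with genes grouped by role on the y axis and bars for the standard error. The 6 genes in red have an unadjusted p under 0.05, and none passes 10% FDR.

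Npas2, an activator, had the largest log2 fold change of the 29 members in edgeR. Npas2 (chromosome 1, 39193731 to 39363236, plus strand, GENCODE M21 on GRCm38) encodes a partner of BMAL1 that can stand in for CLOCK. It was at 8.54, 11.9, 6.28, 8.78, 6.73 and 11.3 CPM in C1 to C6 and at 13.5, 18.2, 11.6, 11.5, 15.4 and 22.1 CPM in A1 to A6. The groups touched only at C2, which lay above A3 and A4: 4 of the 6 AZ6983 mice were above every control. The means were 8.92 ± 2.30 and 15.4 ± 4.16 CPM (SD, n = 6 each), and the log2 fold change (log2FC) was 0.79 (standard error, SE, 0.199, adjusted p = 0.447 from edgeR, exact two-sided permutation p = 0.00866). DESeq2, the tool the study used, gave 0.78 (SE 0.204, adjusted p = 0.0588), which made Npas2 the only member it called. The study itself lists Npas2 among the genes that were higher after AZ6983. In limma-voom the log2FC was 0.78 (adjusted p = 0.413). With any 1 mouse left out, edgeR's estimate stayed between 0.65 and 0.87 and its unadjusted p between 0.000931 and 0.00477. With the percentage of unassigned reads as a covariate it was 0.35 (SE 0.238, adjusted p = 0.9998).

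**Figure D2:**
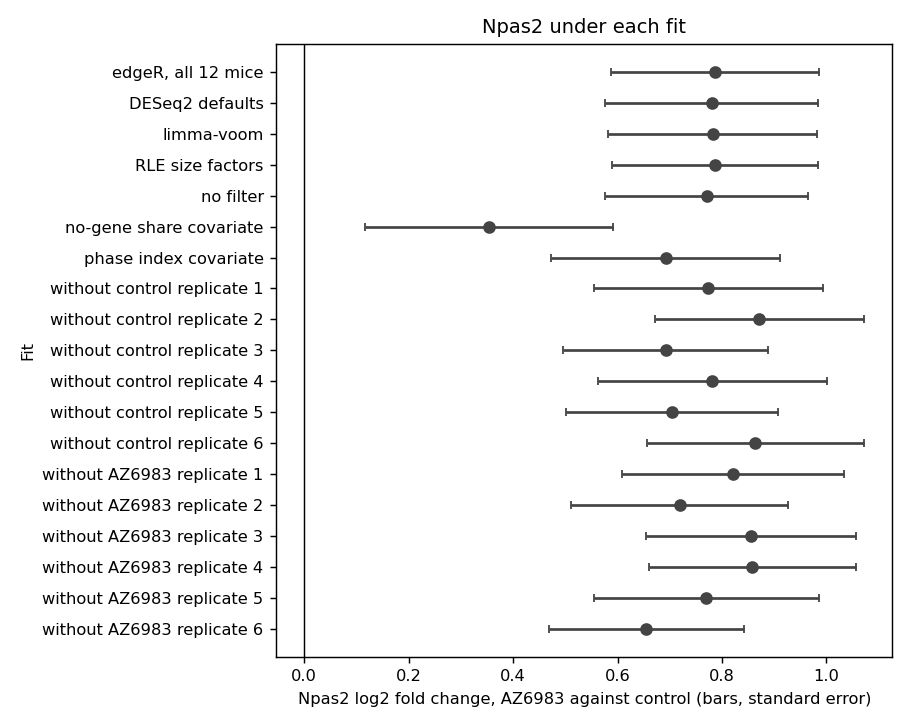
Log2 fold change of Npas2 (x axis) with its standard error under each fit (y axis). The estimates lie between 0.65 and 0.87 except with the percentage of unassigned reads as a covariate, where it is 0.35.

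The other activators differed less. Arntl was at 18.5 to 37.6 CPM in controls (median 30.2) and at 28.2 to 46.0 CPM in AZ6983 mice (median 32.1), with its lowest values in C6 and C5 and its highest in A6. Its log2FC was 0.25 (95% interval −0.09 to 0.60, adjusted p = 0.602), within the spread between mice. Clock was at 177 to 215 CPM in controls (median 206) and at 193 to 222 CPM in AZ6983 mice (median 207), and its log2FC of 0.04 had an interval of −0.08 to 0.17. Arntl2 was at 3.53 to 5.62 CPM over all mice, with a log2FC of −0.05 (interval −0.31 to 0.22).

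The period and cryptochrome repressors had no common direction. Per1, which also answers quickly to hormonal and stress signals, was at 17.1 to 32.7 CPM in controls (median 28.9) and at 23.8 to 42.0 CPM in AZ6983 mice (median 36.1), with 4 of 6 AZ6983 mice above every control (log2FC 0.31, SE 0.170, adjusted p = 0.535). The log2FC of Per1 turned to −0.0278 with unassigned reads as a covariate, and that of Cry1, below, to −0.145. Per3 had the opposite sign, at 17.4 to 30.2 CPM (median 23.0) and 14.7 to 24.1 CPM (median 20.2), with a log2FC of −0.26 (SE 0.170). Per2 was at 24.8 to 41.9 CPM in controls (median 36.7) and 21.6 to 40.3 CPM in AZ6983 mice (median 31.98), almost the same range (log2FC −0.13, SE 0.179). Cry1 ran from 6.12 CPM in C6 to 22.1 CPM in A6, and its log2FC was 0.21 (SE 0.253). For Cry2 it was −0.09 (SE 0.118), with the highest level, 44.0 CPM, in C6 and the lowest, 24.2 CPM, in A6. None of the 5 had an unadjusted p under 0.05 with all mice, and Per1 had one without A1 and without A4.

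Of the nuclear receptors that act on ROR elements, Nr1d2 differed most. Nr1d2 (REV-ERBβ) was at 113 to 180 CPM in controls (median 139) and at 70.5 to 129 CPM in AZ6983 mice (median 118), and 4 of 6 controls were above every AZ6983 mouse. Its log2FC was −0.37 (SE 0.142, adjusted p = 0.45 from edgeR). With a mouse left out it was between −0.44 and −0.27, with an unadjusted p under 0.05 in 12 of 12 fits. It was −0.23 (SE 0.204), with an unadjusted p above 0.05, once unassigned reads were a covariate. Nr1d1 (REV-ERBα) overlapped widely, at 37.2 to 63.3 CPM (median 44.8) and 26.7 to 63.2 CPM (median 43.6), with A4 and A6 below every control. Its log2FC was −0.06 (interval −0.45 to 0.33). Rora, a receptor that activates where REV-ERB represses, had a log2FC of 0.10 (interval −0.06 to 0.25), and Rorb had too few counts for a narrow interval (−0.49 to 0.74).

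The PAR bZIP factors, which carry the rhythm to output genes through D-boxes, were lower in AZ6983 mice in all 3 cases, and their competitor Nfil3 was higher. Tef was at 93.3 to 141 CPM in controls (median 126) and at 68.3 to 112 CPM in AZ6983 mice (median 90.5), with 5 of 6 controls above every AZ6983 mouse and only C2 among them. Its log2FC was −0.42 (SE 0.128, unadjusted p = 0.00603 and adjusted p = 0.447 in edgeR, exact permutation p = 0.0108). Dbp spread more widely, from 17.8 CPM in C2 to 48.1 CPM in C6 (median 27.4) and from 7.38 CPM in A6 to 37.9 CPM in A1 (median 18.2). The log2FC of Dbp was −0.57 (SE 0.326, adjusted p = 0.546), −0.86 without A1, −0.37 without C6 and −0.40 without A6. Its unadjusted p was under 0.05 without A1 and in no other of the 12 fits with a mouse left out. Hlf was at 11.1 to 21.4 CPM and 8.65 to 16.6 CPM (log2FC −0.34, SE 0.191). Nfil3 was at 12.9 to 32.8 CPM in controls (median 22.3) and 17.1 to 39.4 CPM in AZ6983 mice (median 33.9), with a log2FC of 0.45 (SE 0.239). Dbp, Hlf and Nfil3 had an unadjusted p above 0.05 with all mice, and the 4 genes had the same sign in every fit. With a mouse left out, the unadjusted p of Hlf was under 0.05 in 2 of 12 fits (without C1 or A5). That of Nfil3 was too in 2 of 12 (without C4 or A1). With the percentage of unassigned reads as a covariate the log2FC was −0.20 for Tef (SE 0.168), −0.17 for Dbp (SE 0.436), −0.32 for Hlf (SE 0.288) and 0.14 for Nfil3 (SE 0.347), each with an unadjusted p above 0.05.

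**Figure D3:**
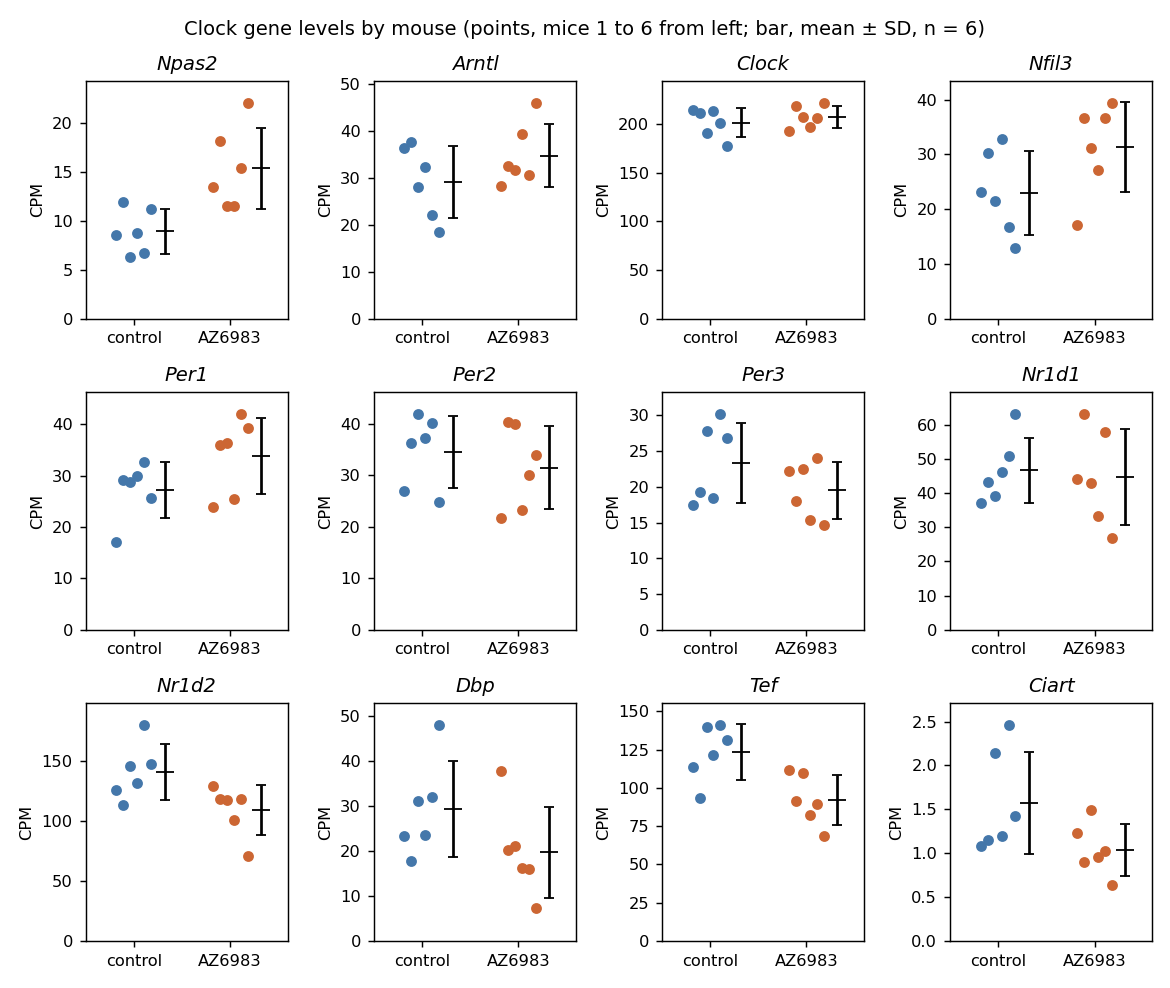
Level in CPM (y axis, from 0) of 12 clock genes in each control (blue) and AZ6983 (orange) mouse, with the mean ± SD (n = 6). Npas2 is mostly higher and Nr1d2, Tef and Ciart mostly lower in AZ6983 mice, while Per2, Nr1d1 and Clock overlap.

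Among the remaining repressors, Ciart (CHRONO), which blocks BMAL1, was scarce, with 29 to 71 counts per control and 17 to 38 per AZ6983 mouse. It was at 1.08 to 2.46 CPM in controls (median 1.31) and at 0.634 to 1.49 CPM in AZ6983 mice (median 0.990), and C3 and C5 were above all other mice. Its log2FC was −0.60 (SE 0.262, unadjusted edgeR p = 0.0392, adjusted p = 0.476, exact permutation p = 0.0606), and its unadjusted p was above 0.05 in 6 of the 12 fits with a mouse left out. Its log2FC was −0.39 with unassigned reads as a covariate. Bhlhe41 (DEC2), which competes for E-boxes, was at 9.14 to 17.0 CPM and 7.12 to 11.2 CPM (log2FC −0.34, SE 0.175). Its relative Bhlhe40 (DEC1) was highest in A5, at 97.4 CPM, and C6, at 82.8 CPM, against 35.1 to 55.6 CPM in the others, and had a log2FC of 0.05 (SE 0.257). A5 was also the mouse with most brown fat signal, and the part of that signal in its Bhlhe40 level was not tested.

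The kinases and turnover genes varied little between mice, except Usp2. Csnk1d and Csnk1e, the casein kinases that mark PER proteins for breakdown, had log2FC values of 0.10 (interval −0.01 to 0.21) and 0.02 (interval −0.11 to 0.16). Btrc, an F-box protein that binds marked PER proteins, had −0.01 (interval −0.20 to 0.17). Usp2, a rhythmic deubiquitinase, was at 8.37 to 17.8 CPM with the highest value in A5, and its log2FC was 0.04 (SE 0.190).

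Of the output and other genes, Leo1 was higher and Fmo2 lower in AZ6983 mice. Leo1, a subunit of the PAF1 complex of transcript elongation, was at 14.5 to 19.7 CPM in controls (median 15.8) and 15.1 to 23.0 CPM in AZ6983 mice (median 20.1), with 3 of 6 AZ6983 mice above every control (log2FC 0.28, SE 0.110, unadjusted p = 0.0232 in edgeR, adjusted p = 0.45). Fmo2 was at 737 to 1232 CPM and 483 to 946 CPM, with its lowest value in A5, and its log2FC was −0.39 (SE 0.172, adjusted p = 0.482). The unadjusted p was above 0.05 in 6 of the 12 fits with a mouse left out for Leo1 and in 7 of 12 for Fmo2, A5 among them for both. A5 also had the lowest sum of smooth muscle markers, 10424 CPM, whose part in its Fmo2 level was not tested. Their log2FC values were 0.08 and −0.04 with unassigned reads as a covariate. Wee1, a kinase that holds back mitosis and is an E-box target, had −0.20 (SE 0.130) and Tspan4 −0.15 (SE 0.131). Timeless, a protein of replication forks, was at 8.94 CPM in A4, the mouse with the thymus signal, and at 4.37 to 7.11 CPM in the other mice, with a log2FC of 0.10 (SE 0.157).

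Across mice the genes of the Arntl side and those of the Dbp, Per3 and Nr1d2 side varied in opposite directions. Pearson's r of log2 CPM was computed for 12 pairs of genes known for like or opposite phases, and 10 passed 5% FDR over the pairs (permutation test with 100000 resamples, two-sided). No share over other gene pairs is given to set beside this count. Arntl ran against Per3 (r = −0.87, adjusted p = 0.00066, Spearman's rho = −0.92, permutation p = 8e-05), against Dbp (r = −0.86, adjusted p = 0.00172, permutation, rho = −0.80, p = 0.00298) and against Nr1d2 (r = −0.84, adjusted p = 0.0033, permutation, rho = −0.88, p = 0.0003). Without C5 and C6, the mice farthest from the median of Arntl, these were −0.87, −0.85 and −0.87. Arntl and Dbp had r = −0.95 within controls (exact permutation p = 0.00139) and −0.89 within AZ6983 mice (exact permutation p = 0.0181). For Arntl and Per3 the values were −0.83 (exact permutation p = 0.0611) and −0.90 (p = 0.00833), and for Arntl and Nr1d2 −0.79 (exact permutation p = 0.0514) and −0.96 (p = 0.00417).

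By Pearson's r the other pairs were looser, except Dbp with Tef. Arntl ran against Nr1d1 (r = −0.71, rho = −0.64, permutation p = 0.00958 and 0.0279) and Ciart (r = −0.72, rho = −0.80, permutation p = 0.009 and 0.00334), and with Cry1 (r = 0.78, rho = 0.62, permutation p = 0.00362 and 0.0347). Dbp and Tef varied together (r = 0.88, rho = 0.88, permutation p = 0.00011 and 0.00039), and r was 0.82 without A6 and C6. Arntl with Clock (r = 0.76, rho = 0.72, permutation p = 0.00442 and 0.0105) and with Nfil3 (r = 0.79, rho = 0.65, permutation p = 0.00165 and 0.0255), and Dbp with Per3 (r = 0.72, rho = 0.61, permutation p = 0.00601 and 0.0404), were looser without the extreme mice. Without them r was 0.60 (permutation p = 0.0653), 0.48 (p = 0.16) and 0.56 (p = 0.0953), on fewer mice and a narrower range of the first gene. No relation passed the test between Arntl and Per2 (r = 0.05, rho = −0.15, permutation p = 0.884 and 0.651) or Npas2 (r = 0.45, rho = 0.46, permutation p = 0.142 and 0.133). Without C6, and likewise without A6, 7 of the 12 pairs passed. Within groups of 6 mice, 1 pair passed 5% FDR in controls and 5 in AZ6983 mice.

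**Figure D4:**
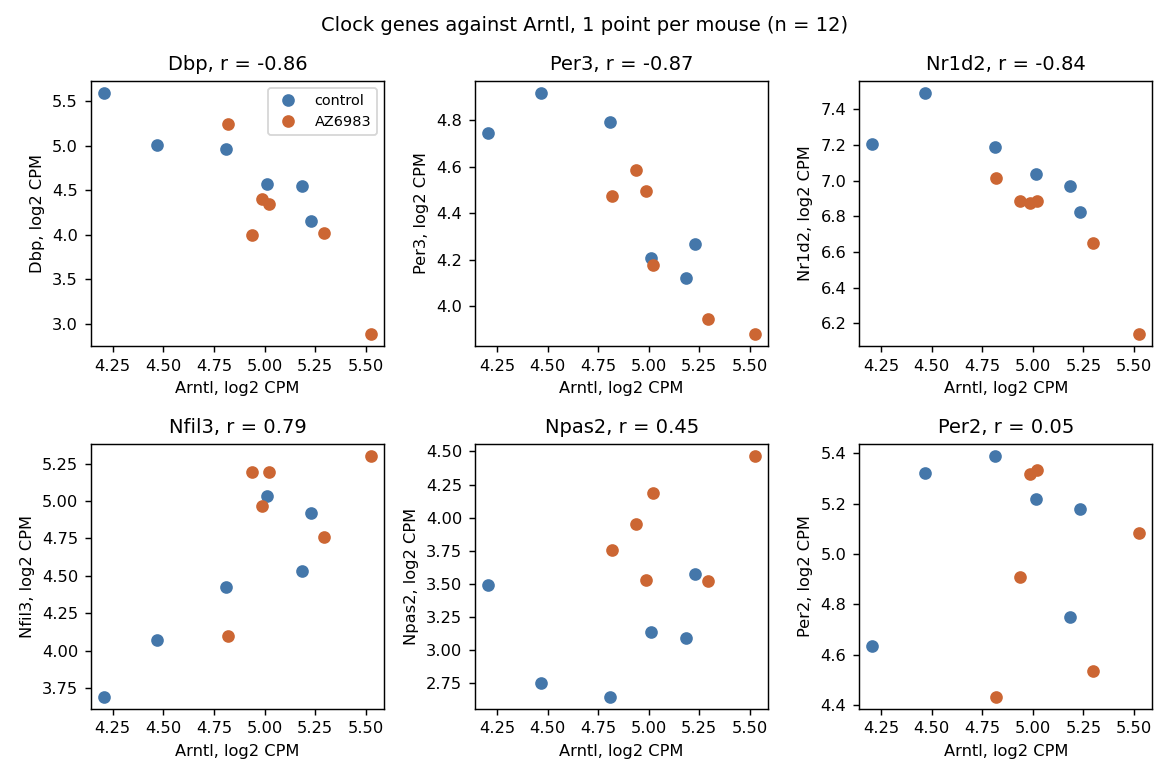
Log2 CPM of clock genes (y axes) against Arntl (x axes) in control (blue) and AZ6983 (orange) mice, 1 point per mouse. Dbp, Per3 and Nr1d2 are lower where Arntl is higher in both groups, Npas2 is mostly higher in AZ6983 mice at a like Arntl level, and Per2 has an r of 0.05.

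The mice were then placed in order by a phase index, the mean log2 CPM of Arntl and Npas2 minus that of Dbp, Per1, Per2, Per3, Nr1d1 and Nr1d2, each gene centred over the 12 mice. As the index was built from the members, it is given without a test. It ran from −1.001 in C5, −0.72 in C3 and −0.66 in C6 through −0.21 in C4, −0.06 in A3, 0.04 in A1, 0.13 in A5, 0.15 in C1, 0.24 in C2 and 0.25 in A2 to 0.56 in A4 and 1.28 in A6. The 4 lowest mice were controls and the 3 highest AZ6983 mice, and the others were mixed. The mean was −0.37 ± 0.505 in controls and 0.37 ± 0.496 in AZ6983 mice (SD, n = 6 each), a difference of 0.73, and 0.55 to 0.85 with any 1 mouse left out. With Arntl alone on the activator side the difference was 0.48, and A1, A3, A5 and A2 lay between −0.15 and −0.06, among the controls. A6 was highest and C6 lowest on that index, with values of 1.09 and −1.03.

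The 21 members that the index did not use followed it to different degrees, and no share over all genes is given to set beside them. Pearson's r with the index over the 12 mice, a description since all values come from the same libraries, was −0.95 for Tef, −0.93 for Ciart, −0.77 for Hlf, −0.68 for Bhlhe41 and −0.65 for Cry2, and 0.84 for Leo1, 0.69 for Nfil3, 0.61 for Clock and 0.57 for Cry1. It was −0.60 for Wee1 and −0.52 for Tspan4. The others were Rora (0.38), Csnk1d (0.24), Usp2 (0.21), Timeless (0.21), Csnk1e (0.09), Rorb (−0.10), Bhlhe40 (−0.13), Btrc (−0.33), Arntl2 (−0.37) and Fmo2 (−0.37). Of the genes it did use, Per1 (0.16) and Per2 (−0.23) followed it least. Values of other kinds are given beside the order. Summed cell type markers had r with the index too, 0.73 for neutrophil and 0.66 for white fat genes. For the other marker lists r was between −0.38 and 0.50. White fat markers (6 genes) summed to 1012 to 2225 CPM in controls and 1510 to 2255 CPM in AZ6983 mice, with 1 of 6 higher and 1 lower at an unadjusted p under 0.05. Neutrophil markers (5 genes) summed to 11.9 to 45.7 CPM and 27.7 to 221 CPM, lowest in C6 and C5 and highest in A6, with 5 of 5 higher at a p under 0.05, against 7.38% of all genes. The percentage of unassigned reads was 9.29% to 10.4% in the 4 mice lowest on the index, all controls, and 12.3% to 14.9% in the 3 highest, all AZ6983 mice. In the mice between them it ran from 8.02% in C1, the lowest of all, to 12.7% in C2. The part of these in the index was not tested.

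**Figure D5:**
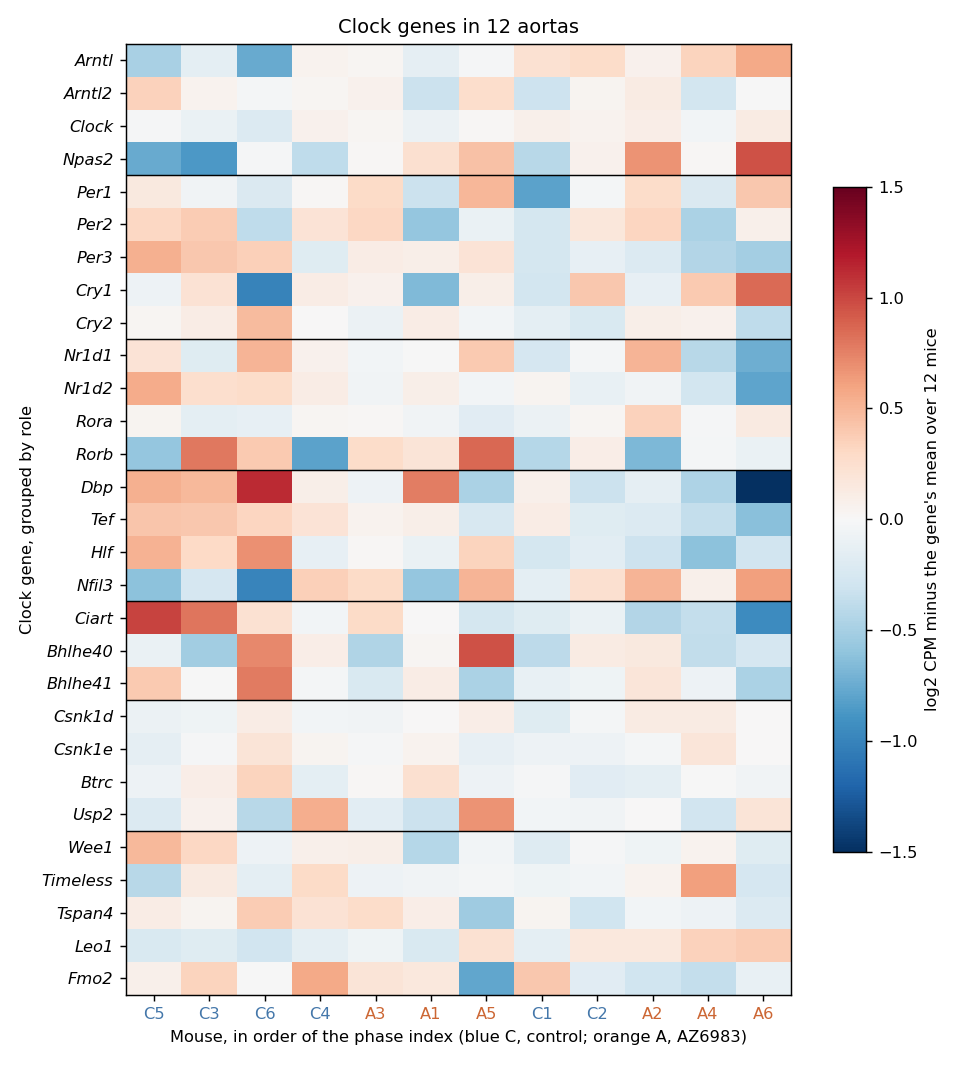
Log2 CPM of each clock gene (y axis, by role) minus its mean over 12 mice, with mice on the x axis in order of the phase index (C, control; A, AZ6983). Dbp, Tef, Nr1d2 and Ciart go from above to below their means as Arntl and Npas2 go the other way, and the kinase rows stay near 0.

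With the phase index made without Npas2 as a covariate in edgeR, Npas2 kept a log2FC of 0.69 (SE 0.220, unadjusted p = 0.00848, adjusted p = 0.581). Of the 22 members outside that index, 5 had an unadjusted p under 0.05 without the covariate and 2 with it, Npas2 and Tef (log2FC −0.26, SE 0.0919, adjusted p = 0.581). Over all 15857 genes there were 1616 without the covariate and 1277 with it. With the covariate the log2FC of Ciart was −0.29 and that of Leo1 0.16, both smaller than without it. Fmo2, the third gene whose p was no longer under 0.05, had −0.41 (SE 0.194), against −0.39 without it. The index shares its libraries with these genes, so this gives values at a like index and no separation of sampling time from treatment.

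Other genes of the pathway showed no member past 10% FDR. Of 22 other clock regulators, 4 were higher and 1 lower in AZ6983 mice at an unadjusted p under 0.05 (22.7%, against 10.2% of all genes). The acetyltransferases Crebbp and Ep300, coactivators of the BMAL1 pair, both had a log2FC of 0.37 (SEs 0.158 and 0.139), and Ncor1, the corepressor of REV-ERB, had 0.20 (SE 0.0690). Crebbp ran from 66.5 to 101 CPM in controls and from 79.9 to 154 CPM in AZ6983 mice. Prkaa1, a subunit of the kinase AMPK that marks CRY1, had −0.10 (SE 0.0444). Of 12 other rhythmic output genes 1 had a p under 0.05 (8.33%), Klf10, an early response factor that the clock drives, with −0.23 (SE 0.0810). Without A2 the log2FC of Crebbp was 0.24, with an unadjusted p above 0.05, and that of Ep300 0.28. When unassigned reads were a covariate it turned to −0.10 for Crebbp and was 0.02 for Ep300, 0.06 for Ncor1, −0.06 for Prkaa1 and −0.17 for Klf10, and none of the 6 genes counted in these lists had a p under 0.05.

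By Pearson's r over the 12 mice, again without a test, the genes outside the lists with a pattern most like the index were Cmah (0.86), Wnt2 (0.85), Gsta3 (0.84), Apoc1 (0.84) and Wfdc21 (0.84), and most opposite to it Kif1bp (−0.91), Tnfrsf21 (−0.86), Atp6v1a (−0.82), Acot6 (−0.82) and Ttc9 (−0.81). Within controls and within AZ6983 mice r was 0.79 and 0.83 for Cmah and −0.90 and −0.79 for Kif1bp. Within either group it lay between 0.68 and 0.83 for the genes like the index and between −0.93 and −0.56 for the opposite ones. The index differed between groups, so r over the 12 mice includes that difference. The log2FC was 0.27 (Gsta3) to 1.31 (Apoc1) and −0.52 (Ttc9) to −0.11 (Kif1bp), with none past 10% FDR in edgeR. Of these genes the study lists Cmah, Wnt2, Apoc1 and Atp6v1a as differing, and it lists the member Npas2 too. No member was more opposite to the index than Nr1d2 (−0.97), which is part of it.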

How the data were processed

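Thoracic aortas of 12 mice were compared, 6 per group by the sample titles. Per the labels, the submitters used CASAVA 1.8.2, STAR 2.5.2b, HTSeq 0.6.1p1 and build mm10, and the authors deposited raw counts per gene symbol, with no normalization. The annotation is not given in the sources used here. Rows for reads on no feature (8.02% to 14.9%), ambiguous (0.606% to 0.698%) and not unique (18.1% to 23.2%) entered neither library sizes nor tests. RNA was not selected for poly(A), so unspliced RNA adds to the counts. Pairs of libraries were checked for copies of each other, and the chi-square of their counts was at least 13.1 per degree of freedom over 66 pairs.

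Counts were tested with edgeR 4.0.16 (R 4.3.3, TMM, filterByExpr, quasi-likelihood test, Benjamini-Hochberg adjustment, 10% FDR). Standard errors are the log2 fold change over the root of F, and 95% intervals are 1.96 standard errors. Log2 CPM has a prior count of 2. Alternatives were DESeq2 1.42.0, limma 3.58.1 (voom), RLE size factors, no filter, covariates and each mouse left out. Exon lengths and gene positions came from GENCODE M21 by symbol. The fits were tested on simulated data. The members and lists were chosen with earlier results of these data known. Every member was named, with other genes by a rule: list genes with an unadjusted p under 0.05, and the 5 genes at each end of r with the index, without Gm and Rik symbols. The values of 1 gene that the rule names are not reported here.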

Additional observations from a re-analysis of the deposited data

Results flagged for a closer look

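Dixon's test was run on 62 groups of 6 mice. Each held the values in 1 treatment group of a series such as a clock gene or the phase index. Of these groups, 2 held a mouse far from the rest. By chance about 1 in 20, or 3.1, would. Timeless was at 3.17 log2 CPM in mouse A4, with the other AZ6983 mice at 2.31 to 2.62. Leo1 was at 4.30 log2 CPM in control mouse C2, with the other controls at 3.86 to 4.01.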

How the results depend on the processing

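DESeq2 with its defaults called 92 genes and 1 clock member (Npas2) at 10% FDR, where edgeR called 0 of each, and limma-voom, RLE size factors, no filter and both covariates also gave 0 members. With a mouse left out the calls were 0 to 27 genes (27 without A5, 1 without A1 or C6) and 0 to 0 members. The members with an unadjusted p under 0.05 were then 3 to 9, and the genes of the other lists 3 to 7 (3 without C1, C3 or C4), against 6 in each case with all mice. Over all genes that count ran from 1046 of 16043 (without C1) to 2233 of 15998 (without A1), against 1616 of 15857. With the percentage of unassigned reads as a covariate it was 0 for the members and for the other lists, and 467 over all genes. With the phase index made without Npas2 as a covariate the count of members outside the index was 2, against 5, and that over all genes 1277. Of the 3 other members Ciart and Leo1 had smaller log2 fold changes and Fmo2 did not (−0.41, against −0.39). The index difference was 0.55 to 0.85 with a mouse left out. Of the 12 gene pairs 7 to 10 passed with a mouse left out (7 without C6 or A6), 1 within controls and 5 within AZ6983 mice.

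Some log2 fold changes changed sign, the largest in size that of Per1 (0.31). With the percentage of unassigned reads they became −0.00319 for Clock, −0.0278 for Per1, −0.145 for Cry1, −0.076 for Rora, −0.13 for Bhlhe40, 0.10 for Btrc and 0.0201 for Tspan4. With the phase index made without Npas2 they became 0.0392 for Arntl2, −0.00544 for Clock, −0.11 for Cry1, 0.0581 for Cry2, 0.0611 for Btrc and −0.0119 for Usp2. Those of Arntl and Nr1d1, which are part of that index, became −0.000733 and 0.167. The cause was not tested. With a mouse left out, the ranges that crossed 0 were −0.127 to 0.00985 for Arntl2, −0.16 to 0.00726 for Cry2, −0.20 to 0.0482 for Nr1d1, −0.0744 to 0.33 for Rorb, −0.23 to 0.23 for Bhlhe40, −0.0172 to 0.0664 for Csnk1e, −0.069 to 0.0593 for Btrc, −0.14 to 0.18 for Usp2 and −0.0433 to 0.17 for Timeless. No paired analysis was possible because the labels give the mice of the groups no shared numbers. With 17 to 71 counts per mouse for Ciart and 8 to 26 for Rorb, depth limits these most.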
